A study of Mus musculus with 24 samples.

Results

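Immediate early genes were measured in mouse liver: Fos, Fosb, Jun, Junb, Atf3, Egr1, Ier2, Ier3, Zfp36 and Dusp1, 10 genes of the 46093 gene symbols in each of 2 count tables. They were taken by symbol, and all 10 were found in both the female and the male table. A filter on low counts left 11830 genes to test in females and 14873 in males; 9 of the 10 passed it in each sex, and Ier3 did not. The livers came from C57BL/6 mice, wild type (WT) or labelled Cyp2b-null, of either sex, fed chow (ND, normal diet) or a high-fat diet of 60% fat (HFD) for 10 weeks. The Cyp2b genes encode cytochromes P450 of the liver, and both diets and both sexes are present in each genotype. The design formed 8 groups of 3 libraries each, 24 in all. Livers were kept frozen before RNA extraction; no source used here gives the age of the mice or the interval from death to freezing. Levels are in CPM, counts scaled to a common library size after TMM normalization, and differences are on the log2 scale with their SE (n = 3 libraries per group). Where a level in CPM is given with ±, it is the group mean with the SD over its 3 libraries.

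Immediate early genes are transcribed soon after a cell receives a signal, without new protein synthesis, through factors that are already present, such as serum response factor with its ternary complex partners, and CREB. Most of their mRNAs are short-lived. Growth factors, cytokines, stress hormones, partial hepatectomy and the excision or dissociation of tissue are all known to induce them in liver. Fos, Fosb, Jun, Junb and Atf3 encode basic leucine zipper proteins; Fos and Jun proteins dimerize into the transcription factor AP-1. Egr1 is a zinc finger transcription factor. Ier2 and Ier3 encode small regulatory proteins, Zfp36 (tristetraprolin) binds AU-rich mRNAs and promotes their decay, and Dusp1 is a phosphatase that inactivates MAP kinases.

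The bases just before the start are shown for 4 members: Fos, the gene the others are set against below, Jun, Atf3 and Dusp1. In females on ND, Fos, Jun and Atf3 were higher in every Cyp2b-null library than in any WT library, and Dusp1 was not. The sequences are RefSeq entries (GRCm38.p6) of 250 bases, written 5′ to 3′ on the gene's strand. Capitals mark TGACG on either strand, the core of the element bound by CREB and ATF proteins.
Fos, chr12:85473640-85473889, forward strand: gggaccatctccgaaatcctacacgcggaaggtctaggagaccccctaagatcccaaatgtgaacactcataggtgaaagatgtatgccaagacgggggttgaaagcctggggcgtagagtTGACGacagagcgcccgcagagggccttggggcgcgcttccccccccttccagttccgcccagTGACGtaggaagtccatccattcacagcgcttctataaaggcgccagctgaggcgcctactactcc
Jun, chr4:95052223-95052472, reverse strand: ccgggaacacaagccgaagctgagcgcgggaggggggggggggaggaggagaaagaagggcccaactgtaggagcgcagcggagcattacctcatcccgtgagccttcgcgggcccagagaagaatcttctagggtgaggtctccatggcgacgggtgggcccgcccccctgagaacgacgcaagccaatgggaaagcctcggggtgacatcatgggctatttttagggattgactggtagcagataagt
Atf3, chr1:191183334-191183583, reverse strand: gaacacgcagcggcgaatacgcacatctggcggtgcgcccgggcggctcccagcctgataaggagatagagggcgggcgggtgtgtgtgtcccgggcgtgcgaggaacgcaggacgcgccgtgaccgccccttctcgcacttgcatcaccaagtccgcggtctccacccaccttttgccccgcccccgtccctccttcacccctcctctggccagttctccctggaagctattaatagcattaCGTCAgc
Dusp1, chr17:26508473-26508722, reverse strand: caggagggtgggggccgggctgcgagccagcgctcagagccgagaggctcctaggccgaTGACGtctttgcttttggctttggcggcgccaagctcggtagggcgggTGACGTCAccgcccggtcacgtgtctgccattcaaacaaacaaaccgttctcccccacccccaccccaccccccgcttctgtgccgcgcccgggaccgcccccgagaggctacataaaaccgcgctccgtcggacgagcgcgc
TGACG in either orientation stood in the window of 5 of the 8 members with an entry (Fos, Fosb, Junb, Atf3 and Dusp1), against 17.8% of 32851 mouse promoter windows of the same length. The full palindrome TGACGTCA, which contains TGACG on both strands, stood in 1 of the 8, Dusp1, against 1.55% of windows. TGANTCA, the AP-1 element, was in 0 of the 8 (6.75% of windows). The CArG box, bound by serum response factor, was in 1, Zfp36 (1.47% of windows). TATAAA on either strand was in 1, Fos (12.4% of windows). A match describes letters only, and sites outside the window were not looked for. Egr1 and Ier2 had no entry in the table.

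In the GENCODE M21 annotation (GRCm38), each member is a protein-coding gene, and Fos, Fosb, Egr1, Ier2 and Ier3 overlap no other gene. Fos lies on chromosome 12 from 85473890 to 85477273 and Egr1 on chromosome 18 from 34859823 to 34864984, both on the forward strand. On the reverse strand, Jun (chromosome 4, 95049034 to 95052222) overlaps the antisense gene Junos, Junb (chromosome 8, 84974484 to 84978718) overlaps Prdx2, Zfp36 (chromosome 7, 28376784 to 28380253) overlaps Gm44710, and Atf3 (chromosome 1, 191170296 to 191218039) overlaps Gm24748. Dusp1 (chromosome 17, 26505590 to 26562128, reverse strand) overlaps 4 annotated genes, Ergic1 among them. The printed Atf3 and Dusp1 windows lie inside these annotated spans, at a start downstream of the longest transcript's. No source used here says whether counting used strand, so reads of a member and of a gene on the opposite strand could not be told apart.

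Library totals ran from 2005120 to 2661836 counts in females and from 8282510 to 20176050 in males. The targeted genes followed the titles in females: the range of Cyp2b13 was 565 to 1138 counts over 6 WT libraries, with 0 in all 6 Cyp2b-null ones, and Cyp2b9 had 788 to 1245 against 0 to 17. They did not settle the male label. Cyp2b13 ranged over 23 to 85 counts in WT males and 7 to 89 in males labelled Cyp2b-null. On ND, Cyp2b9 was lower in WT males (1 to 4 counts against 24 to 59), against the label, and Cyp2b10 was higher (30 to 97 against 4 to 15). On HFD the counts of both overlapped. The male groups are therefore named by their label here. For 6 female libraries the labelled genotype field goes against the title; groups follow the titles. Males and females were extracted and prepared with different kits, and sex and kit cannot be told apart. Among males, library 1 of the labelled-null group on ND stood apart: its median Spearman correlation with the other libraries was 0.800, where no other had less than 0.965, and 32.7% of its counts were mitochondrially encoded, where no other exceeded 7.88%. Female WT ND library 1 had 14.3% (at most 8.80% in the other female libraries). The 5 hepatocyte markers (such as Alb and Apoa1) summed to between 39892 and 141087 CPM. Neutrophil markers summed to 12.3 CPM or less in every library, with Mpo at 0 throughout and Ly6g also at 0 in females. Lymphocyte markers summed to 59.7 CPM in that male library and to 8.11 CPM or less in the other males.

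Per kilobase of annotated exon, the levels of the members spanned a wide range. Median levels over the 12 female libraries fell in the order Ier2 (132 CPM per kb), Junb (83.5), Zfp36 (69.7), Jun (61.8), Egr1 (41.2), Fos (37.7), Dusp1 (16.6), Atf3 (9.16), Ier3 (0.908) and Fosb (0.545). In males the order was Zfp36 (53.2 CPM per kb), Jun (34.6), Dusp1 (27.9), Junb (20.8), Egr1 (18.7), Ier2 (17.6), Fos (4.66), Atf3 (1.56), Ier3 (0.405) and Fosb (0.163). The ranges of neighbours overlapped throughout: Fos ran from 0.531 to 95.2 CPM per kb in females and Dusp1, next in the order, from 4.21 to 30.9. Ier3 was near the detection limit, with 0 to 9 counts per female library and 2 to 13 per male library, and was not tested.

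The members varied far more between libraries of 1 group than most genes did. The biological coefficient of variation, edgeR's estimate of the relative spread between libraries of a group beyond counting error, was 1.83 for Fosb and 1.48 for Atf3 in females, the highest and second highest of all 11830 genes tested. The same genes held ranks 1 and 2 in males, at 1.51 and 1.30. The median over all genes was 0.242 in females and 0.305 in males. Fos ranked 12th in females (1.14) and 5th in males (1.17), Jun 25th and 16th, and Egr1 45th and 7th. Ier2 ranked 212th and 53rd, Junb 612th and 163rd, Dusp1 696th and 746th, and Zfp36 886th and 2268th. Zfp36 thus had the smallest spread of the 9, at 0.440 in females and 0.449 in males, still above the median gene.

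**Figure D1:**
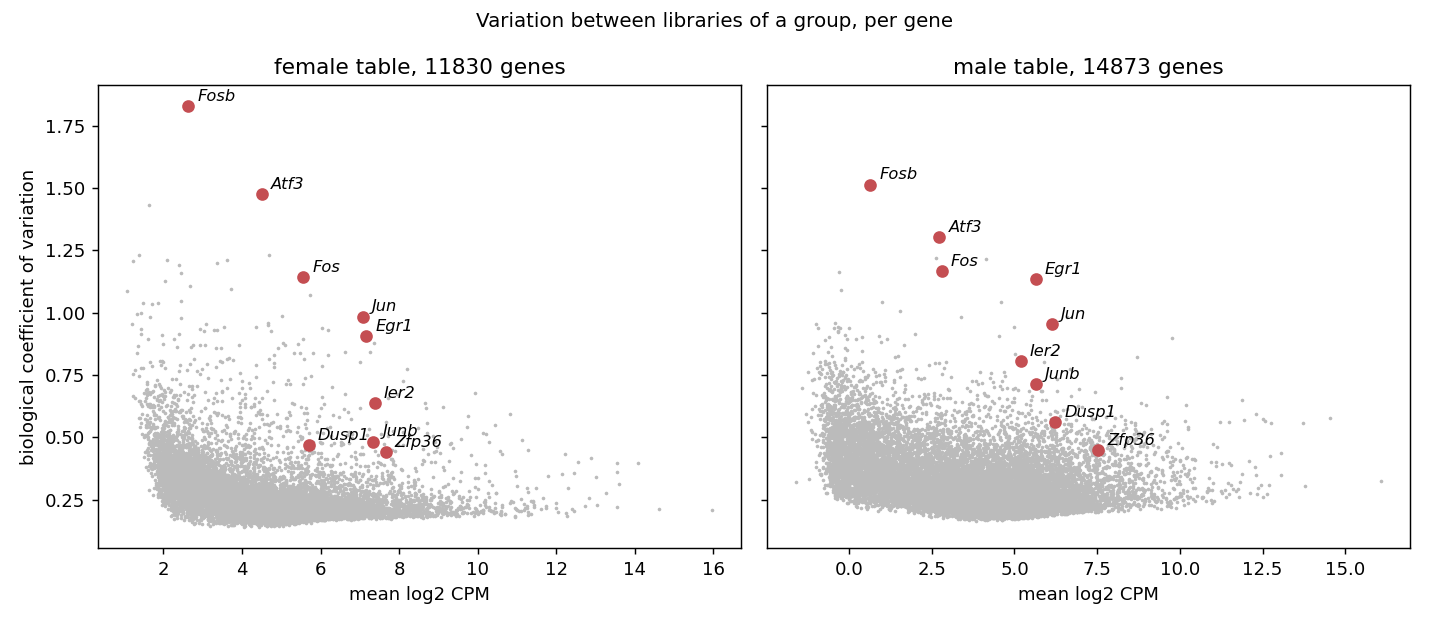
Biological coefficient of variation (y axis) against mean log2 CPM (x axis) for every gene tested in each table; grey points are genes and red points the tested members. Fosb and Atf3 sit at the top of both panels, and Zfp36 and Dusp1 lie lowest of the members.

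Fos, the partner of Jun in AP-1, shows the size of this spread. In WT females on ND it stood at 4.17, 91.3 and 60.5 CPM in libraries 1, 2 and 3, and in Cyp2b-null females on ND at 150.2, 127 and 128 CPM. On HFD it stood at 26.3, 1.25 and 165 CPM in WT and at 86.1, 224 and 8.67 CPM in Cyp2b-null females. The Cyp2b-null ND libraries lay within 1.19-fold of each other, while the highest WT HFD library held 132 times the level of the lowest (95% interval 44.9 to 644, counting error only). In males Fos stood at 3.89, 65.5 and 55.5 CPM in WT on ND and at 32.0, 8.49 and 1.57 CPM in the labelled-null group on ND. On HFD it stood at 0.151, 13.4 and 26.0 CPM in WT and at 1.07, 19.9 and 0.577 CPM in the labelled-null group. Every male group thus held a library at 3.89 CPM or less and another at 19.9 CPM or more. Over all 12 male libraries the highest was 435 times the lowest (95% interval 120 to 3601, with 2 counts in the lowest library).

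**Figure D2:**
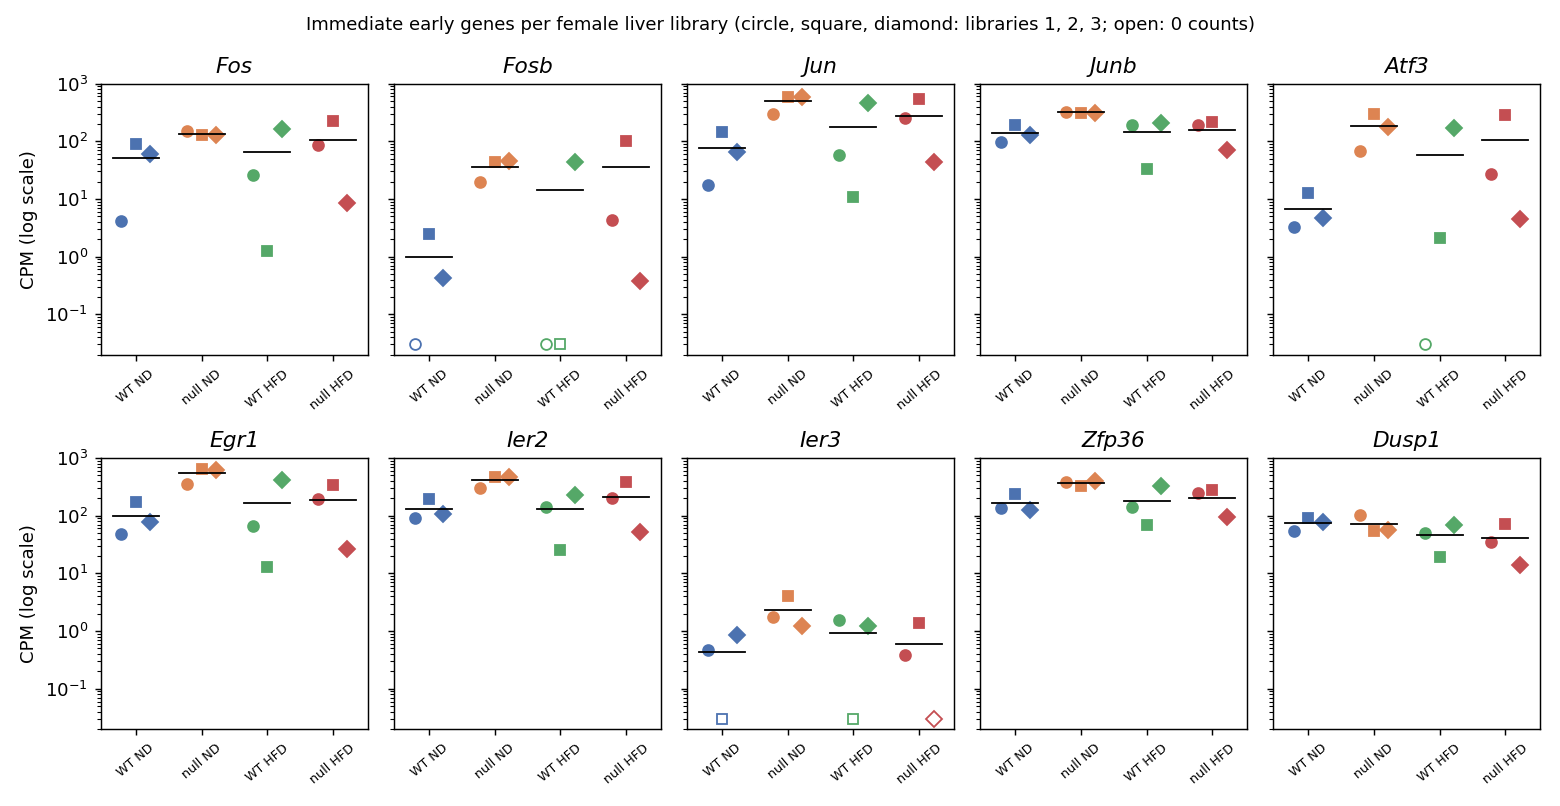
CPM (log y axis) of each member in each female library, by group on the x axis; symbols are libraries 1, 2 and 3, lines are group means, and open symbols at the floor are libraries with 0 counts. Fos in Cyp2b-null ND lies between 127 and 150.2 CPM, and spans 1.25 to 165 CPM in WT HFD.

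**Figure D3:**
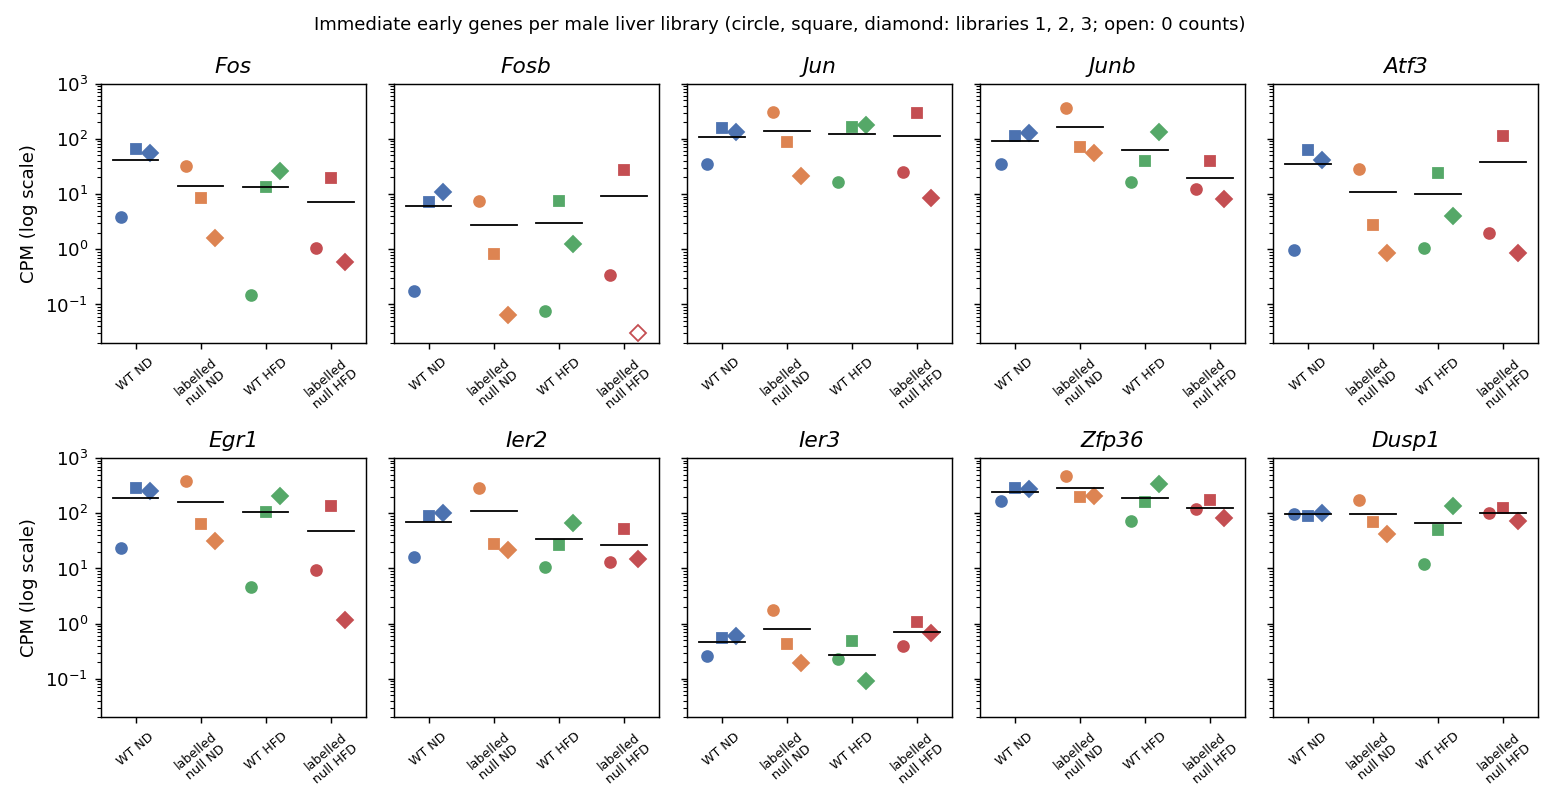
CPM (log y axis) of each member in each male library, by group on the x axis, drawn as for females. The libraries of each group are far apart for Fos, Fosb, Atf3 and Egr1, and close together for Zfp36 by comparison.

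The members moved together from library to library. Library 3 of WT HFD, library 2 of WT ND and library 2 of Cyp2b-null HFD held the highest level of all 9 tested members within their groups in females. In males this held for library 1 of the labelled-null group on ND and library 2 of the labelled-null group on HFD. In total 5 of the 8 groups had 1 library highest for every tested member; in Cyp2b-null ND females no library led for more than 3. Summed over the 10 members, the level ran from 175 to 2882 CPM in females and from 134 to 2041 CPM in males. The male library with 2041 CPM was the one that stood apart, and the part of its other properties in this level was not tested; the next highest male library had 1165 CPM.

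Pearson's r between 2 members, over the 12 libraries of a table and after group means were taken out of log2 CPM, had a median of 0.873 in females (36 pairs, 0.493 to 0.982) and 0.876 in males (0.464 to 0.986). All pairs share the same libraries and the same scaling, so these values only describe. With group means left in, pairs that included Dusp1 had a median r of 0.666 in females and 0.558 in males, against 0.907 and 0.854 for the other 28 pairs. With group means taken out, the median for Dusp1 pairs was 0.835 in females and 0.742 in males, against 0.882 and 0.895 for the other pairs, and the lowest female pair was Junb with Atf3 (0.493). The lower correlation of Dusp1 thus depended in part on the group means in both sexes. The values that follow have group means left in. In males Egr1 had the highest r of any gene with Fos, 0.940 (Spearman's rho 0.965). Fosb with Atf3 (0.983) and Junb with Zfp36 (0.958) were closer pairs there. For Egr1 with Fos in females r was 0.923 and rho 0.853. Outside the members, the 5 genes with the highest r to Fos in females were Jund (0.951), Btg2 (0.947), Cyr61 (0.920), Gdf15 (0.907) and Ccm2 (0.877). In males they were Btg2 (0.926), Nr4a1 (0.922), Rnd3 (0.912), Cyr61 (0.881) and Egr2 (0.881). Spearman's rho for these genes was 0.874 to 0.909 in females and 0.783 to 0.951 in males, and without the 2 libraries farthest from the median of Fos r was 0.849 to 0.954 and 0.805 to 0.897. Jund is a further AP-1 subunit, and Btg2, Cyr61, Nr4a1 and Egr2 are themselves known as rapid response genes.

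**Figure D4:**
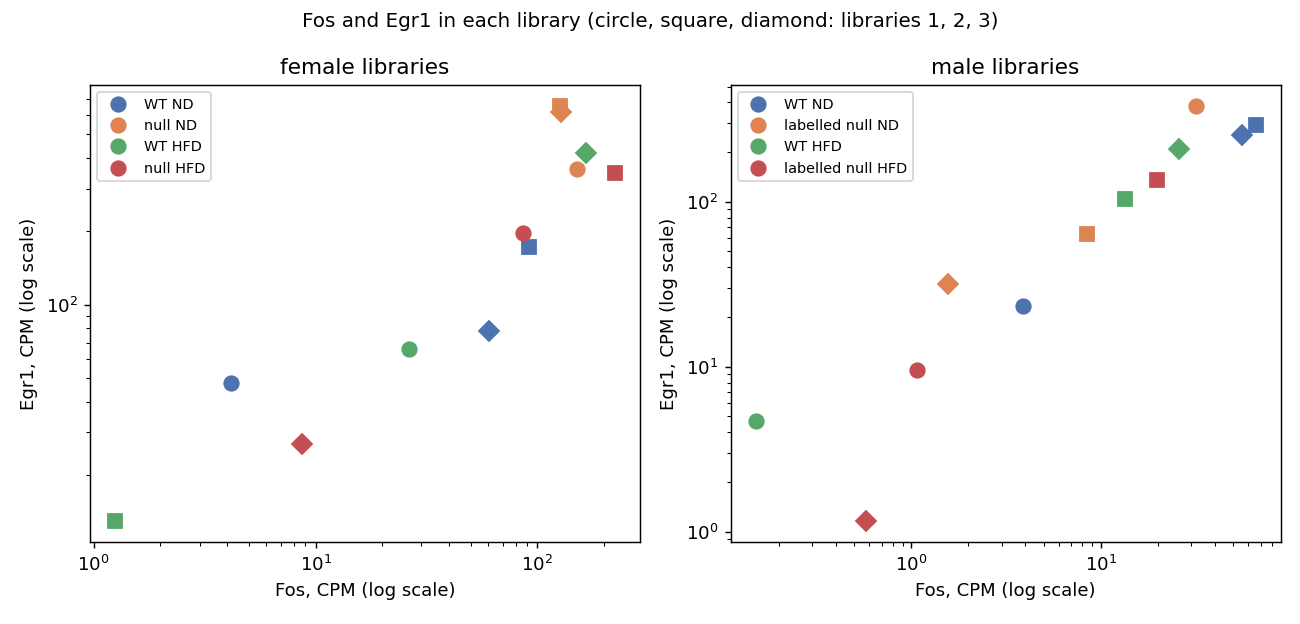
Egr1 against Fos in CPM (both axes log) in each female and each male library; colours are groups and symbols libraries 1, 2 and 3. The points rise together in both panels, and libraries of 1 group lie far apart along that line except for female Cyp2b-null ND.

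The first comparison asked whether loss of Cyp2b went with other levels on normal chow. In females, 8 of the 9 tested members were higher in every Cyp2b-null library than in any WT library, and 0 passed the test. The members moved together from library to library, so these 8 are not separate observations. Non-overlap in this direction was found for 5.18% of all genes, and an adjusted p below 0.05 for 0.127%. At an unadjusted edgeR p below 0.05 stood 2 members, Atf3 and Zfp36, and 6.33% of all genes. Among the AP-1 subunits, Atf3, a stress-induced repressor and activator, stood at 3.24, 12.5 and 4.62 CPM in WT and at 68.6, 297 and 178 CPM in Cyp2b-null females. Its log2 difference was 4.75 ± 2.08 (edgeR adjusted p = 0.779). Fosb had 0, 5 and 1 counts in WT (0, 2.50 and 0.420 CPM) against 45, 96 and 112 (19.5, 43.1 and 45.3 CPM). Its difference was 5.21 ± 2.46 (edgeR adjusted p = 0.807); with only these 2 groups in the fit it passed the test (edgeR adjusted p = 0.0129). Jun stood at 17.1, 144 and 65.1 CPM in WT and at 302, 595 and 581 CPM in Cyp2b-null. Junb stood at 96.3, 192 and 131 CPM against 329, 315 and 315 CPM. The genotypes were apart for all 5 subunits; for Fos the nearest libraries, at 91.3 and 127 CPM, were close, and its difference was 1.38 ± 1.42 (edgeR adjusted p = 0.955).

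The other regulators had the same arrangement, apart from Dusp1. Egr1 stood at 47.7, 173 and 78.1 CPM in WT females on ND and at 359.9, 656 and 621 CPM in Cyp2b-null females. Ier2 stood at 90.8, 198 and 108 CPM against 305, 461 and 475 CPM. Zfp36, the mRNA decay factor, stood at 138, 237 and 124 CPM against 378, 328 and 402 CPM. None of these sets of libraries overlapped. The log2 difference of Zfp36 was 1.15 ± 0.52 (edgeR adjusted p = 0.783), and those of Egr1 and Ier2 had edgeR adjusted p = 0.811 and 0.808. Dusp1 overlapped, at 53.7, 92.3 and 78.9 CPM in WT and 102, 54.8 and 55.4 CPM in Cyp2b-null (log2 difference -0.08, 95% interval -1.30 to 1.14). The fitted differences of the other 8 members lay between 1.15 and 5.21, and the median of the 9 was 1.65 against -0.02 over all genes tested. WT library 1, low in most members, was also the female library with the highest mitochondrially encoded share; without it the differences of Atf3, Fosb and Zfp36 were 4.42, 4.65 and 1.03. In bulk liver, a change in RNA per cell and a change in the number of cells that express a gene cannot be told apart.

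Genes upstream and beside the members were read in the same comparison, from lists chosen with earlier results of these data known. Of 46 other immediate early and rapid response genes, 36 were tested in females; 29 had a positive and 7 a negative log2 difference (median 0.96), and 18 did not overlap in the higher direction, as for 5.18% of all genes. None passed the test (0 called), while 11 in the higher and 1 in the lower direction had an unadjusted edgeR p below 0.05, as for 6.33% of all genes. The smallest p-values were those of Cebpb, a liver transcription factor of the acute phase (125 ± 32.8 CPM in WT, 309 ± 68.2 in Cyp2b-null, edgeR adjusted p = 0.128), the small Maf protein Maff (2.65 ± 1.79 and 40.2 ± 9.73 CPM, adjusted p = 0.131) and Gadd45b (4.44 ± 2.98 and 23.4 ± 15.3 CPM, adjusted p = 0.196). The 21 genes for serum response factor, ternary complex and CREB factors and MAP kinases were all tested: 9 had a positive and 12 a negative difference (median -0.10), and 0 were called. Their summed level was 559.9 to 623 CPM in WT and 557 to 658 CPM in Cyp2b-null. These ranges overlapped. Heat shock genes had a negative difference in 10 of 11 (median -0.55), 4 of them without overlap (6.1% of all genes in that direction) and 0 called; Bag3, a co-chaperone, had the smallest p (-1.16 ± 0.36, edgeR adjusted p = 0.426). Of 8 glucocorticoid targets 4 had a positive and 4 a negative difference (median -0.10, highest 1.73), and 1 was called. Without overlap were 1 in the higher and 2 in the lower direction (5.18% and 6.1% of all genes). The called gene was Tsc22d3, which encodes the glucocorticoid-induced leucine zipper. It fell from 109 ± 24.5 to 38.8 ± 4.83 CPM (-1.48 ± 0.21, edgeR adjusted p = 0.00679, and 0.0732 without Cyp2b-null library 2). Of 8 hypoxia genes tested 0 were called, with 3 positive and 5 negative (median -0.03). The summed level of the hypoxia list did not overlap, at 400.1 to 438 CPM in WT and 484 to 560.1 CPM in Cyp2b-null, and its part in the members' values was not tested.

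Markers of the cell types of liver were set beside these values. Between WT and Cyp2b-null females on ND, Kupffer cell markers summed to 185 to 361 against 179.5 to 346 CPM, endothelial markers to 111 to 202 against 145 to 173 CPM, and stellate cell markers to 330.4 to 401 against 348 to 381 CPM. Erythroid markers summed to 232 to 481 against 181 to 356 CPM and cholangiocyte markers to 36.4 to 66.7 against 28.2 to 56.6 CPM. These ranges overlapped, and 0 genes of these lists were called. The 5 hepatocyte markers all had a positive difference (median 0.28), and their summed level overlapped too, at 88399 to 94243 against 78731 to 118903 CPM. Neutrophil and lymphocyte markers were below the filter in females, at most 6.95 and 12.2 CPM in these groups.

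On HFD the female genotypes overlapped in all 9 tested members and 0 were called. Of all genes, 3.38% did not overlap in the higher and 3.59% in the lower direction, and 0.0169% were called; at an unadjusted edgeR p below 0.05 stood 0 members and 2.44% of all genes. Egr1 stood at 65.6, 12.9 and 420.4 CPM in WT and at 197, 346 and 26.8 CPM in Cyp2b-null females. Atf3 had 0, 2.08 and 172 CPM in WT and 27.0, 282 and 4.52 CPM in Cyp2b-null, and Fosb 0, 0 and 43.3 CPM against 4.30, 103 and 0.377 CPM. Each HFD group thus held 1 library with high and 1 with low levels of most members. The 3 smallest p-values were those of Ier2 (0.66 ± 0.78), Fosb (1.29 ± 1.66) and Jun (0.65 ± 1.25), with edgeR adjusted p = 1.0 for each; without Cyp2b-null library 2 these differences were -0.05, -2.60 and -0.26. Of the other immediate early genes 17 of 36 had a positive difference (median -0.03) and 0 were called.

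The effect of diet was read within each genotype; in each sex these comparisons share their groups with those between genotypes. In Cyp2b-null females all 9 tested members had a negative difference (HFD minus ND, median -0.83, against 0.01 over all genes), and 0 were called, as for 0% of all genes. No member had an unadjusted edgeR p below 0.05, where 4.8% of all genes did. Egr1, Junb and Zfp36 were lower in every HFD library; of all genes, 5.05% did not overlap in the lower and 6.18% in the higher direction. Junb stood at 329, 315 and 315 CPM on ND and at 192, 213 and 70.5 CPM on HFD (-1.01 ± 0.58, edgeR adjusted p = 0.963). Zfp36 stood at 378, 328 and 402 CPM on ND and at 247, 274 and 93.5 CPM on HFD (-0.85 ± 0.52, adjusted p = 0.963). Dusp1 overlapped (102, 54.8 and 55.4 CPM in ND libraries, 35.2, 72.6 and 14.0 CPM in HFD libraries). Among the other immediate early genes 30 of 36 had a negative difference (median -0.65) and 0 were called; Gadd45b (-2.63 ± 0.59), Klf10 (-1.29 ± 0.34) and Ppp1r15a (-1.09 ± 0.35) had the smallest p, each with edgeR adjusted p = 0.963. Kupffer cell markers were positive in 8 of 8 (median 0.65, 0 called), and their sums did not overlap (179.5 to 346 CPM on ND, 365 to 649 CPM on HFD). With diet in WT females these markers were also positive in 8 of 8 (median 0.68, 0 called). There the sums overlapped, at 185 to 361 CPM on ND and 314 to 553 CPM on HFD. In Cyp2b-null females, to which the values below also belong, endothelial markers were negative in 5 of 5 (median -0.38, 0 called). Their sums did not overlap (145 to 173 CPM on ND, 101 to 129.9 CPM on HFD). Hepatocyte markers were negative in 5 of 5 (median -0.39, 0 called), with overlapping sums. Stellate cell markers were negative in 4 of 6 (median -0.14, 0 called). Their sums did not overlap (348 to 381 CPM on ND, 285 to 344 CPM on HFD). The part of these cell types in the members' values was not tested. With 1 Cyp2b-null library left out the differences ran from -1.53 to -0.39 for Dusp1. Without Cyp2b-null HFD library 3 those of Junb and Zfp36 were -0.66 and -0.50.

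In WT females all 9 tested members overlapped between the diets and 0 were called (0.0169% of all genes). Of all genes, 3.89% did not overlap in the higher and 3.97% in the lower direction, and 3.48% had an unadjusted edgeR p below 0.05, which 0 members had. The largest fitted differences, Fosb at 3.88 ± 2.62 and Atf3 at 3.11 ± 2.03 (edgeR adjusted p = 1.0 for both), rested on WT HFD library 3: without it they were -4.20 and -2.66. Fosb had 105 counts in that library and 0 in both other HFD libraries. Dusp1 stood at 53.7, 92.3 and 78.9 CPM on ND and at 50.2, 19.6 and 69.2 CPM on HFD (-0.69 ± 0.56, edgeR adjusted p = 1.0); this was -0.33 without HFD library 2 and -1.09 without HFD library 3. Blocking on the replicate number, which was taken to pair these libraries, gave 3.88 for Fosb and 2.78 for Atf3, and called none. The test of whether the effect of diet differed between female genotypes called 0 members and 0% of all genes, with 0 members and 2.89% of all genes at an unadjusted edgeR p below 0.05. All 9 interaction terms were negative; Atf3 had -3.91 ± 2.63, Egr1 -2.27 ± 1.64 and Zfp36 -0.97 ± 0.74, each with edgeR adjusted p = 1.0, but without WT HFD library 3 they were 1.86, -0.20 and -0.20. Without Cyp2b-null HFD library 2 that of Atf3 was -6.63, and without Cyp2b-null HFD library 3 that of Zfp36 was -0.61.

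**Figure D5:**
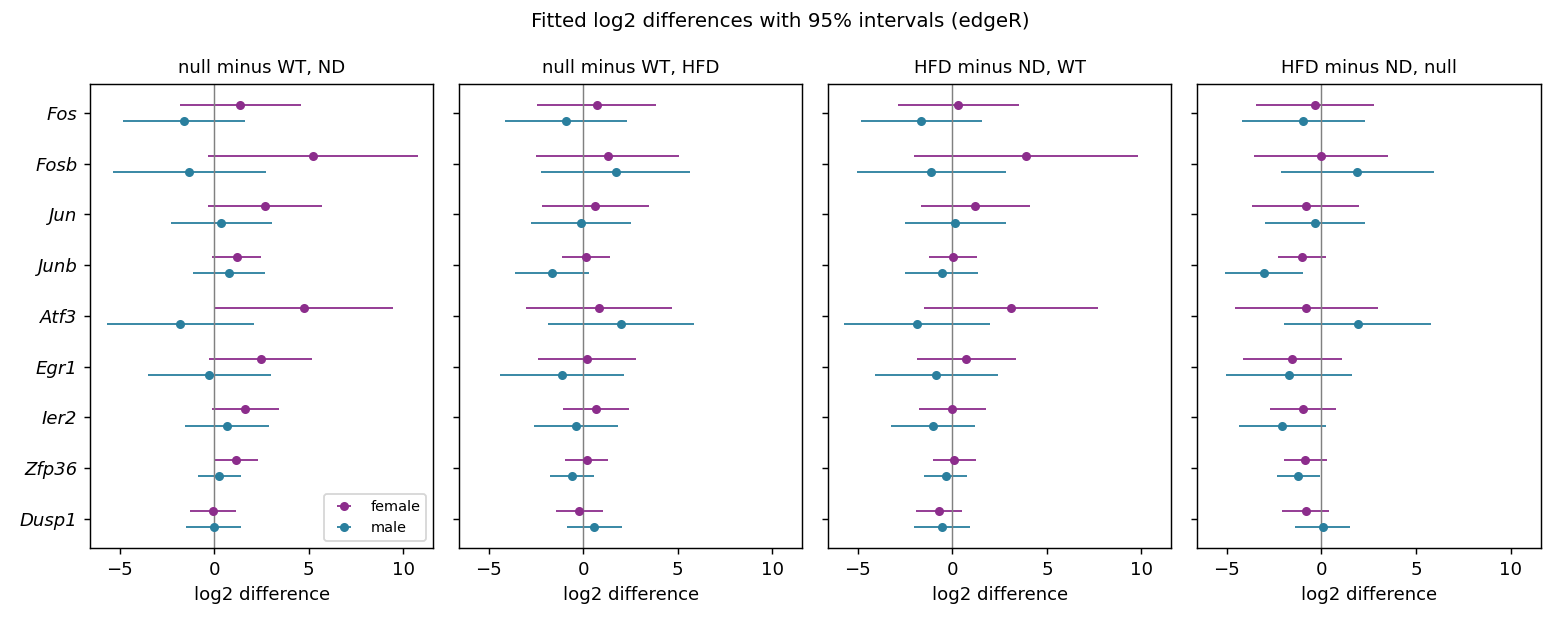
Log2 differences of the 9 tested members (points) with 95% intervals (bars) from the edgeR fits, for females and males in the 4 comparisons named above the panels; null in males is by label. The female differences on ND lie above 0 for 8 members, and of these the whole interval lies above 0 only for Atf3 and Zfp36. The male intervals of Junb and Zfp36 for diet in the labelled-null group lie below 0. Intervals are not adjusted for the number of genes tested.

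Males did not show the female arrangement on ND. All 9 tested members overlapped between WT and the labelled-null group and 0 were called, where 10.3% of all genes did not overlap in the higher and 12.5% in the lower direction and 0.0134% were called. At an unadjusted edgeR p below 0.05 stood 0 members and 18.6% of all genes. Egr1 stood at 23.3, 291 and 253 CPM in WT and at 382, 63.4 and 31.7 CPM in the labelled-null group. Junb stood at 35.5, 113 and 129 CPM against 355, 72.4 and 56.2 CPM. The labelled-null library that stood apart was the highest of its group in every tested member. Atf3 (-1.78 ± 1.78), Fos (-1.60 ± 1.48) and Junb (0.79 ± 0.88) had the smallest p-values, with edgeR adjusted p of 0.587, 0.555 and 0.626. Without that library the differences were -4.26 for Atf3, -3.02 for Fos and -0.53 for Junb, whose sign rested on 1 library. Without WT library 2 that of Atf3 was -1.07, and without WT library 1 that of Junb was 0.39. Whether the genotype difference on ND differed between females and males was not tested.

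Heat shock genes were negative in 11 of 11 in this male comparison (median -0.84), 8 of them without overlap (12.5% of all genes in that direction) and 0 called; Hsph1, which encodes a chaperone of the Hsp110 family, had the smallest p (-1.99 ± 0.40, edgeR adjusted p = 0.165). The other immediate early genes were positive in 25 of 40 (median 0.16, 0 called). Hepatocyte markers were negative in 5 of 5 (median -0.88), 4 of them without overlap (12.5% of all genes in that direction). Their sums did not overlap either, at 108046 to 141087 CPM in WT and 39892 to 80994 CPM in the labelled-null group. Differences of lymphocyte markers were positive in 5 of 5, and 0 genes of either list were called. Lymphocyte markers summed to 59.7 CPM in the library that stood apart and to no more than 5.43 CPM in the other libraries of its group; the part of these markers in the members' values was not tested.

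On HFD the male genotypes overlapped in all 9 tested members, and 0 were called, as for 0% of all genes. Of all genes, 4.67% did not overlap in the higher and 3.6% in the lower direction, and 2.12% had an unadjusted edgeR p below 0.05, which 0 members had. Fosb stood at 0.0753, 7.49 and 1.22 CPM in WT and at 0.338, 27.6 and 0 CPM in the labelled-null group. Atf3 stood at 1.05, 24.4 and 3.99 CPM against 1.97, 114 and 0.866 CPM, a difference of 2.01 ± 1.78 (edgeR adjusted p = 1.0). Library 2 carried the labelled-null level of both genes, and without it the difference of Atf3 was -2.71. Junb had -1.66 ± 0.90 and Zfp36 -0.59 ± 0.52 (adjusted p = 1.0 for both). Without WT library 3 these were -0.52 for Junb and 0.10 for Zfp36, and without labelled-null library 2 that of Junb was -2.60.

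Diet in the labelled-null males gave the smallest p-value of any member. Junb stood at 355, 72.4 and 56.2 CPM on ND and at 12.3, 39.3 and 8.08 CPM on HFD, with no overlap. Its log2 difference was -3.02 ± 0.95 (edgeR adjusted p = 0.434). DESeq2 called it (-3.04 ± 0.83, DESeq2 adjusted p = 0.0383), and without the library that stood apart it was -1.70 (edgeR adjusted p = 0.888). Zfp36 stood at 463, 195 and 209 CPM on ND and at 119, 174 and 81.8 CPM on HFD, also without overlap (-1.21 ± 0.53, edgeR adjusted p = 0.446); without that library it was -0.69. These 2 of 9 members were the ones at an unadjusted edgeR p below 0.05, as were 11.1% of all genes; 5.72% of all genes did not overlap in the lower direction, and 0% were called. Ier2 came next (-2.05 ± 1.05, edgeR adjusted p = 0.478), overlapped, and was 0.13 without the same library. Dusp1 stood at 174, 68.6 and 42.6 CPM in the ND libraries and overlapped with HFD, at 103, 123 and 71.4 CPM. Heat shock genes were positive in 10 of 11 (median 0.60), 8 without overlap (6.37% of all genes) and 0 called, while the other immediate early genes were negative in 24 of 40 (median -0.19, 0 called), with Socs3, an inhibitor of cytokine signalling, at 42.5 ± 48.5 CPM in ND libraries and 5.14 ± 0.506 CPM in HFD libraries (edgeR adjusted p = 0.411).

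In WT males all 9 tested members overlapped between the diets and 0 were called (0% of all genes). Of all genes, 12.9% did not overlap in the higher and 10.1% in the lower direction, and 6.49% had an unadjusted edgeR p below 0.05, which 0 members had. Dusp1 was the steadiest member in WT on ND, at 95.3, 89.2 and 102 CPM, and stood at 12.2, 49.7 and 134 CPM on HFD. Ier2 stood at 16.4, 89.9 and 103 CPM on ND and at 10.8, 26.3 and 66.4 CPM on HFD. Library 1 was the lowest of its group for 8 of 9 members on ND and for 9 of 9 on HFD. The 3 smallest p-values were those of Fos (-1.65 ± 1.47), Atf3 (-1.88 ± 1.77) and Ier2 (-1.01 ± 1.02), with edgeR adjusted p of 0.930, 0.932 and 0.935. With 1 library left out they ran from -2.65 (without HFD library 3) to -1.07 (without HFD library 1) for Fos, from -3.77 (without HFD library 2) to -1.14 (without ND library 2) for Atf3, and from -1.93 (without HFD library 3) to -0.58 (without HFD library 1) for Ier2. The interaction of genotype label and diet called 0 members (0% of all genes), and 0 members against 4.65% of all genes had an unadjusted edgeR p below 0.05. Junb had -2.45 ± 1.26, Atf3 3.79 ± 2.51 and Fosb 3.02 ± 2.59 (edgeR adjusted p = 0.891 to 0.895), and without labelled-null HFD library 2 those of Atf3 and Fosb were -0.89 and -2.46. That of Junb was -1.14 without labelled-null ND library 1 and -1.28 without WT HFD library 3.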

How the data were processed

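Liver RNA-seq of 24 libraries was analysed from deposited raw counts per gene symbol (1 table for each sex), which the authors made with tools that the submitters' processing notes name as FastQC, Trimmomatic, GSNAP, Subread and edgeR, on GRCm38.p5. No source used here gives their order, settings or use of strand. Male RNA was prepared with RNeasy Plus Universal and TruSeq Total RNA kits and female RNA with Trizol and NEB Next Ultra, per the labels' protocols. Groups and replicate numbers came from the titles. Nothing in the labels names separate animals within a group; p-values therefore cover only the spread among these libraries, which may be technical. No 2 libraries agreed within sampling noise (chi-square per degree of freedom 5.78 at the least).

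Rows of a repeated symbol (1806 in males, 2 in females) were summed; Ier3 was the only member affected, and its extra rows held 0 counts. The 25 symbols turned into dates took at most 0.16% of a library and were not tested. A separate edgeR 4.0.16 model was fitted for each sex (limma 3.58.1, R 4.3.3): 1 term per group over 12 libraries, TMM scaling, edgeR's filter on low counts (smallest count 10), robust dispersions and the two-sided quasi-likelihood test. Benjamini-Hochberg adjustment ran across all genes tested; below 0.05 a gene was called. Log2 CPM used a prior count of 2. Intervals between libraries are 95% exact conditional intervals and, like floors of 3 counts, cover counting error only. With 12 libraries and 3 per group, totals of 2005120 to 2661836 counts in females measured low transcripts less precisely than 8282510 to 20176050 in males. The fit was tested on simulated counts in which all genes had the same spread, smaller than that of any tested member. That run therefore does not show whether genes as variable as the members would be called.

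The members, the gene lists and the comparisons were chosen with earlier results of these data known. The rule for named genes gave log2 differences for the members at an unadjusted p below 0.05 and in any case the 3 with the smallest p in a comparison, all called genes of a list or otherwise at most 3 with the smallest p, and the 5 genes nearest to Fos by Pearson's r. Other differences printed, such as those of Dusp1, Fos, Egr1 and Ier2 on ND, were added after their values were seen. The alternatives tried were DESeq2 1.42.0, RLE scaling, no filter on low counts, a fit of only the 2 groups compared, a block for the replicate number, the first of repeated symbols, a term for the 2 sides of principal component 1 (known from an earlier analysis) and leaving out each library. Same-numbered libraries deviated together, with r above 0.1 in every pair, only for diet in WT (0.139 to 0.564 in females, 0.110 to 0.127 in males), so the numbers were taken to pair the libraries there. This pairing rested on these correlations alone, and libraries of different number were not compared in this way.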

Additional observations from a re-analysis of the deposited data

How the results depend on the processing

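Of 140 counts of called members under the alternatives, 138 stayed at 0. The exceptions were 1 member in the female genotype comparison on ND with the compared groups alone (Fosb) and 1 in the diet comparison of labelled-null males with DESeq2 (Junb). Of 432 log2 differences under the alternatives, 416 kept their direction and their side of the threshold. With the term for library sides, Junb between male genotypes on ND was -0.36 in place of 0.79. When each library was left out in turn, differences that changed sign ran as follows. Among females they ran between genotypes on HFD from -0.26 to 2.99 for Jun, from -2.60 to 9.38 for Fosb and from -0.055 to 1.34 for Ier2. For diet in WT females they ran from -2.66 to 3.86 for Atf3 and from -4.20 to 5.72 for Fosb, and for the female interaction from -6.63 to 1.86 for Atf3. Among males they ran from -0.53 to 1.17 for Junb between genotypes on ND, from -2.71 to 3.90 for Atf3 and from -0.98 to 0.10 for Zfp36 on HFD, and from -2.98 to 0.13 for Ier2 with diet in the labelled-null group. For the male interaction they ran from -0.89 to 6.29 for Atf3 and from -2.46 to 5.45 for Fosb. In the female genotype comparison on ND all left-out values were positive: 4.20 to 5.52 for Atf3, 4.65 to 7.07 for Fosb and 0.98 to 1.51 for Zfp36. The cause of these shifts was not tested.

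The replicate block called 0 members in every comparison and changed no other call among the members. Between the WT groups that were taken as paired, the block gave Fos -1.57 in males (no block -1.65). It was fitted over all 12 libraries of a sex, not over the WT libraries alone. In the other comparisons same-numbered libraries did not all deviate together (female genotypes on ND, r from -0.37 to -0.17), and no sample pairing was inferred there. Counts of called genes over the whole table moved more. The female genotype comparison on ND called 15 genes, against 121 with no filter, 76 with DESeq2, 43 with the term for library sides, 8 with the block and 5 to 12 with a library left out. The male one called 2, against 35 with no filter, 427 with DESeq2, 0 with the compared groups alone, 1 with the block or the term for library sides and up to 724 with a library left out. In females on HFD it called 2, against 12 with no filter and 1 with that term. Diet in WT females called 2, against 38 with no filter, 19 with DESeq2, 15 with that term and 0 with the block or the compared groups alone. The other 6 comparisons called 0, against 0 to 30 with no filter, 3 to 112 with DESeq2, up to 21 with the compared groups alone and up to 28 with a library left out. Depth limits Ier3, which could not be tested in either sex, and Fosb in the female libraries with 0 to 5 counts.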
